A study of Mus musculus with 8 samples.

Results

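The effect of the IKKα AA allele that intestinal epithelial cell (IEC) preparations share with and without stabilised β-catenin was read from 4 arrays of AA/AA mice set against 4 arrays of mice without the allele, which together are all 8 arrays of the series. The 4 AA arrays were chosen by their titles and comprise 2 of IKKα AA/AA mice (IKKa-AA) and 2 of mice that also carry inducible β-catenin c.a. (double mutants). The other 4 comprise 2 of wild type mice (WT) and 2 of mice with inducible β-catenin c.a. alone (bCATca). All mice, WT and IKKa-AA included, were of mixed strain, C57BL/6 x 129Sv x FVB, and were gavaged with tamoxifen on 5 days, and their IEC were taken on day 15 after the first dose. Per the design text, stabilisation of β-catenin is restricted to IEC, while no source used here restricts the AA allele to a cell type. Nothing in the labels says that the arrays of a group come from separate animals, so p-values measure only the spread between arrays, which may be technical in part.

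IKKα is a kinase that acts both in the classical NF-κB pathway, beside IKKβ and the scaffold NEMO, and in the alternative pathway, where NIK activates it and it triggers the processing of p100. The AA allele replaces the serines of its activation loop by alanines. Related kinases, TBK1 and IKKε, act in the pathways that induce interferons, whose receptors signal through factors such as STAT2 and IRF9 to interferon-stimulated genes.

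Values are log2 intensities of the brightest probe set of each of 12393 genes. A difference is the AA mean minus the mean without AA, averaged over both β-catenin backgrounds in a limma fit with β-catenin as covariate, and its standard error (SE) comes from that fit. Adjusted p-values are Benjamini-Hochberg values over all 12393 genes, and a gene passed under 0.05. A gene is said not to overlap where both IKKa-AA arrays lie on one side of both WT arrays, and both double mutant arrays lie on the same side of both bCATca arrays. The transcript of IKKα itself was not analysed here.

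The largest spread within a group was that between the 2 IKKa-AA arrays. Over all genes the SD of the difference between replicates was 0.431 in IKKa-AA, against 0.304 in double mutants, 0.336 in bCATca and 0.292 in WT. WT replicate 1 alone read high for the X-inactivation transcript Xist, at 9.18, while the other 7 arrays read at most 4.03, and it alone read low for the Y-linked gene Eif2s3y, at 2.02. The WT arrays thus differ in sex and hold RNA of different animals. The highest reading of these absent sex chromosome transcripts, 4.03, serves as a rough guide to background. Ctnnb1, which encodes β-catenin, read 11.96 to 12.37 on all 8 arrays and checks no label, since the allele stabilises the protein. The 15 epithelial identity genes averaged 10.91 to 11.06 on the AA arrays and 10.86 to 11.05 on the others. An 18S ribosomal RNA control probe set read 12.39 and 12.35 in IKKa-AA, against 11.31 and 11.69 in WT, and 11.77 and 12.07 in double mutants, against 11.97 and 12.15 in bCATca. Its part in the results was not tested.

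No gene passed the test of the shared IKKα AA effect in limma (0% of 12393, smallest adjusted p = 0.325). At an unadjusted p under 0.05 there were 1151 genes, 530 higher with AA (4.28%) and 621 lower (5.01%). The arrays did not overlap in the higher direction for 576 genes (4.65%) and in the lower direction for 466 (3.76%). Left at 4 separate group means, the same contrast called 5 genes, Amph, Hs6st2, Myl9, Nkd1 and P4ha2, all lower. Their differences lay mainly in 1 background, at -2.21 and -0.17 for Amph (IKKa-AA against WT, then double mutants against bCATca), -0.18 and -2.39 for Hs6st2, -0.37 and -3.60 for Myl9, -0.02 and -2.16 for Nkd1 and -0.23 and -1.72 for P4ha2. In the background with the smaller difference, Amph, Hs6st2, Myl9 and Nkd1 read below the background guide in both groups. A fall there could hardly be read. Without IKKa-AA replicate 2, which leaves 1 array in its group, genes of both directions passed, interferon response genes and T cell markers among them. Without WT replicate 2, H2-Q10, an MHC class I gene, passed at a difference of 1.51, and without any other single array no gene did. The genes named here are therefore given with their values, and a p that misses the threshold does not show that they did not differ.

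Interferon-stimulated genes had higher values on the AA arrays in both β-catenin backgrounds. All 44 measured members of the interferon response list had a positive difference, with a median of 0.84 beside -0.01 for all genes. Of them 36 were higher at an unadjusted p under 0.05 (81.8%, against 4.28% of all genes), and 27 did not overlap (61.4%, against 4.65%). None was lower by either measure. The median was 0.64 for IKKa-AA against WT and 1.00 for double mutants against bCATca. The mean level of the list was 8.18 and 7.39 in IKKa-AA, against 7.18 and 7.04 in WT, and 8.92 and 8.92 in double mutants, against 7.99 and 7.84 in bCATca. Both IKKa-AA arrays stood above both WT arrays, replicate 1 far above and replicate 2 narrowly. Replicate 1 exceeded both WT arrays in 42 of the 44 genes (4741 of all 12393 genes) and replicate 2 in 30 (4268 of 12393). In 38 genes both double mutant arrays exceeded both bCATca arrays (2801 of all 12393 genes). Without IKKa-AA replicate 1 the median was 0.73, and without any array in turn it lay between 0.69 and 0.96. Left without the β-catenin covariate, the fit placed 18 members under an unadjusted p of 0.05 in place of 36.

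Among the antiviral effectors, Oasl2, a 2′-5′ oligoadenylate synthetase-like protein, read 9.81 and 9.04 in IKKa-AA, against 8.64 and 8.22 in WT, and 10.62 and 10.76 in double mutants, against 9.40 and 9.01 in bCATca. The AA arrays were higher in both backgrounds without overlap, by 1.24 (SE 0.20, 2.36-fold, adjusted p = 0.325), and the double mutant gene rose against bCATca by 1.48 (adjusted p = 0.0453). Sp100, a nuclear body protein induced by interferon, read 7.06 and 7.13 in IKKa-AA, against 6.65 and 6.44 in WT, and 7.53 and 7.65 in double mutants, against 6.65 and 6.47 in bCATca. Its 4 arrays without AA lay within a narrow band below all 4 AA arrays, and the shared difference was 0.79 (SE 0.13, adjusted p = 0.325). Against bCATca alone Sp100 rose by 1.03 in double mutants (adjusted p = 0.021).

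Zbp1, a sensor of Z-form nucleic acids, read 9.10 and 8.41 in IKKa-AA, against 7.50 and 7.70 in WT, and 9.92 and 9.88 in double mutants, against 9.38 and 9.14 in bCATca. It was the interferon gene among those named by p whose difference was larger without stabilised β-catenin, at 1.16, than with it, at 0.64, and the interaction did not pass. Adar, which edits adenosine to inosine in double-stranded RNA, read 7.10 and 6.55 in IKKa-AA, against 6.18 and 6.31 in WT, and 7.60 and 7.82 in double mutants, against 6.88 and 6.85 in bCATca. The groups did not overlap in either background for Adar, and the shared difference was 0.71 (SE 0.14, adjusted p = 0.325).

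Signalling components of the pathway showed the same order. Stat2, a transcription factor of the interferon-activated complex, read 6.94 and 6.08 in IKKa-AA, against 5.84 and 5.62 in WT, and 7.13 and 7.45 in double mutants, against 6.13 and 6.01 in bCATca. Its AA arrays stood 1.00 higher (SE 0.20, adjusted p = 0.325), with IKKa-AA replicate 2 only slightly above WT replicate 1. Usp18, the protease that removes ISG15 and restrains the type I receptor, read 9.83 and 8.12 in IKKa-AA, against 7.86 and 6.96 in WT, and 10.68 and 10.85 in double mutants, against 8.86 and 8.53 in bCATca. The shared difference of Usp18 was 1.82 (SE 0.35, 3.52-fold, adjusted p = 0.325), and 1.52 without IKKa-AA replicate 1. Uba7, the enzyme that activates ISG15 and a gene outside the list, read 8.68 and 8.52 in IKKa-AA, against 7.96 and 7.97 in WT, and 9.10 and 9.27 in double mutants, against 8.67 and 8.29 in bCATca. Its 3 probe sets agreed in direction, and the brightest gave 0.67 (SE 0.12, adjusted p = 0.325).

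**Figure D1:**
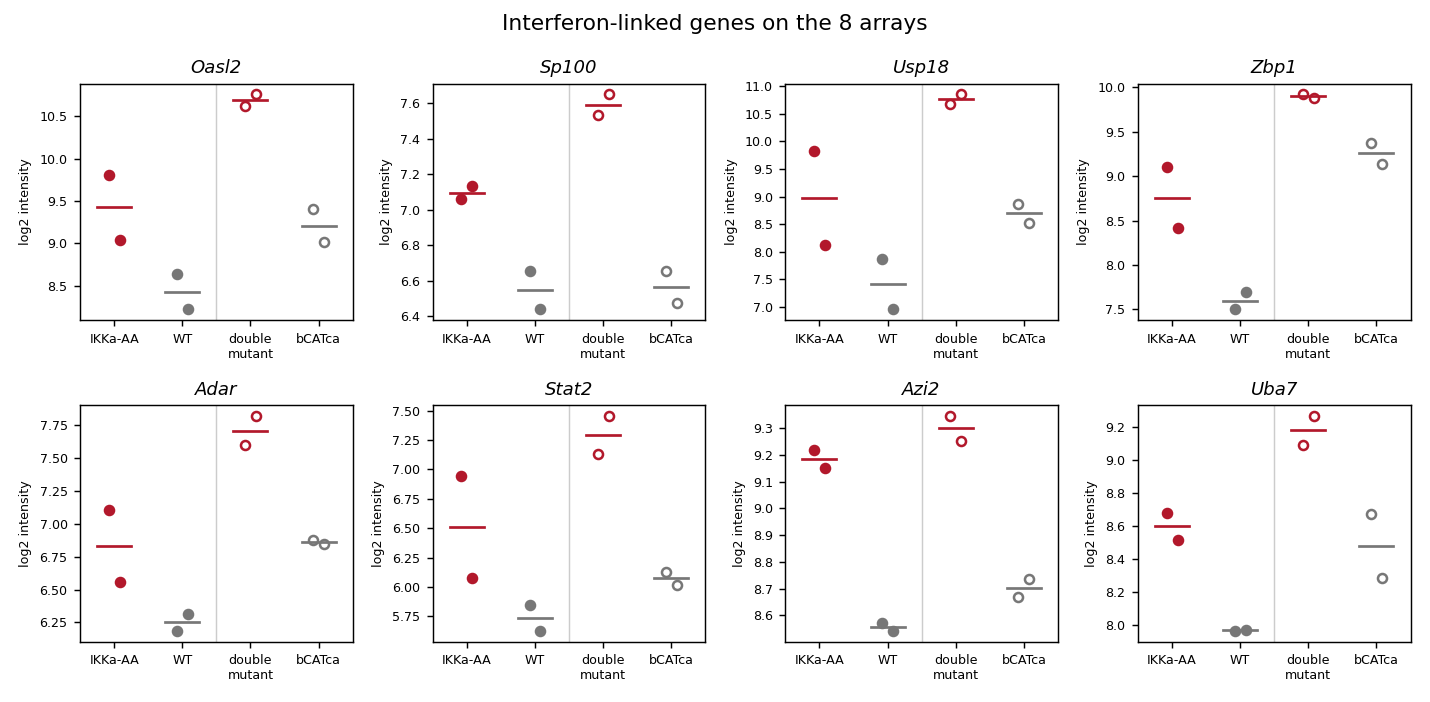
Log2 intensity (vertical axes, each on its own scale) of 8 genes linked to interferon on the IKKa-AA, WT, double mutant and bCATca arrays, with 1 dot per array and a line at the mean of each pair. In every panel the red AA dots lie above the grey dots of the same β-catenin background, and for Usp18, Stat2 and Adar the lower IKKa-AA dot comes close to WT.

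Azi2, an adaptor that binds the kinases TBK1 and IKKε, had the smallest p of all genes with a higher level on the AA arrays. It read 9.22 and 9.15 in IKKa-AA, against 8.57 and 8.54 in WT, and 9.34 and 9.25 in double mutants, against 8.67 and 8.74 in bCATca. The difference was alike in both backgrounds, at 0.63 and 0.60 (shared 0.61, SE 0.09, adjusted p = 0.325), and both probe sets agreed. Without any single array it stayed between 0.59 and 0.63. The kinase genes themselves differed less: Tbk1 stood 0.40 higher and Ikbke, which encodes IKKε, 0.29 higher, both without overlap.

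In double mutants against bCATca, 6 interferon list members passed (150 of all genes passed, 1.21%, and 11 to 395 with a single array left out). Besides Oasl2 and Sp100 they were Oas3 and Oas2, which make the 2-5A activator of RNase L, the antiviral GTPase gene Mx1 and the interferon-inducible gene Ifi27l2a, which rose by 1.88, 2.06, 1.39 and 1.99. The same genes stood at 0.64, 0.73, 0.31 and 0.22 in IKKa-AA against WT, where none passed. Mx1 read 4.32 and 4.32 in IKKa-AA, against 4.13 and 3.90 in WT, close to the background guide. Of the members with little difference, named after their values were seen, Isg20 stood at 0.03, Socs1, a feedback inhibitor, at 0.11, Ifi35 at 0.14 and Irf1 at 0.17.

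The promoters of interferon list members are shown because these genes had higher values together and because the interferon-activated complex that holds STAT2 and IRF9 binds a known element, the ISRE. Its core was searched as GAAANNGAA on both strands of 300 bases (250 before and 50 after the start) from RefSeq, GRCm38.p6. The core was present in 20 of 33 members with a promoter in the table (60.6%), against 8.63% of 9888 genes on the array and 8.56% of all 32851 promoters. The GAS element, searched as TTCNNNGAA, was present in 14 of 33 (42.4%), against 8.44% of genes on the array, and matches of the elements can overlap. The NF-κB consensus, searched as a letter pattern in the same way, was present in 8 of 33 (24.2%), against 12% of genes on the array. In antigen presentation genes the ISRE core was present in 4 of 19 (21.1%). A match describes letters in the window and shows no binding. The share of a list follows from its members and their sequences, and the readings of the arrays do not enter it. The 5 promoters printed belong to the members with the smallest p that have exactly 1 entry in the table, a choice made after their values were seen. They lie at chr5:114896684-114896983 (+ strand) for Oasl2, chr10:128270248-128270547 (+) for Stat2, chr11:118401910-118402209 (-) for Lgals3bp, chr5:120777610-120777909 (-) for Oas3 and chr8:71537423-71537722 (-) for Bst2, and are written 5′ to 3′ in the direction of the gene with ISRE core matches in capitals.
Oasl2: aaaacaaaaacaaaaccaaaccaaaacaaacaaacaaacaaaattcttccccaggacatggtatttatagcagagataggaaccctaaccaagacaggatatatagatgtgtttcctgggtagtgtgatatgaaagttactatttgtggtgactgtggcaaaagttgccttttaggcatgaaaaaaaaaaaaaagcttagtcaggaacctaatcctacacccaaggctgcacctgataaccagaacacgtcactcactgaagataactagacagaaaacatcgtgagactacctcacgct
Stat2: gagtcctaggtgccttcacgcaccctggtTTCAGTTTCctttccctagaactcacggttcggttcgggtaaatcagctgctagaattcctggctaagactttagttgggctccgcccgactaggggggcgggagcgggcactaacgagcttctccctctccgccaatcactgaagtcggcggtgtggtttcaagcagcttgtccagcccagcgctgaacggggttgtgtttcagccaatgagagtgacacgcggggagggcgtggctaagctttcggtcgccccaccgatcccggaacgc
Lgals3bp: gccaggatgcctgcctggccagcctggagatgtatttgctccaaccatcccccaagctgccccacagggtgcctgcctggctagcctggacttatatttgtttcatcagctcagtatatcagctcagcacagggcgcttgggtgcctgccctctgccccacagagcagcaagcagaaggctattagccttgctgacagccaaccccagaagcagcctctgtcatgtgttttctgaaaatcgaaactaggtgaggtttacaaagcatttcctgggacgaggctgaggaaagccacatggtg
Oas3: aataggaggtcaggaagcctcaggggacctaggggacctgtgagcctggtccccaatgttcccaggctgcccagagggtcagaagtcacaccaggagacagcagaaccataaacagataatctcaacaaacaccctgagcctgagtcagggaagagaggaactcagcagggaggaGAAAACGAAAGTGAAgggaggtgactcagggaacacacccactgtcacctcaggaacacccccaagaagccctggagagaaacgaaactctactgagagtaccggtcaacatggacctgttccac
Bst2: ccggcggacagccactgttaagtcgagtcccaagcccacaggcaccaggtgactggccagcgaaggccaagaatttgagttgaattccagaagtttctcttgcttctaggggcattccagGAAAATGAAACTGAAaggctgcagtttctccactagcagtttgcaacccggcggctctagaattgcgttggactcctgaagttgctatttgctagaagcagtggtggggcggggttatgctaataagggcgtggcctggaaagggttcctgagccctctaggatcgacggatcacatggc
Oas3 and Bst2 each hold 2 overlapping matches on the gene's strand, beginning at positions -75 and -130 from the start, and Stat2 holds 1 on the other strand, at position -221. Oasl2 and Lgals3bp hold none in this window. Of these genes, Bst2, the surface protein tetherin that holds budding virus at the cell, read 8.31 and 6.37 in IKKa-AA, against 6.11 and 5.81 in WT, and 9.62 and 9.26 in double mutants, against 7.62 and 7.99 in bCATca. Oas3 read 8.10 and 7.41 in IKKa-AA, against 6.96 and 7.26 in WT, and 8.62 and 9.14 in double mutants, against 7.31 and 6.69 in bCATca. Lgals3bp, a secreted glycoprotein, stood 0.50 higher (SE 0.11, adjusted p = 0.335). Genes with and without a match in the window were thus both among those with non-overlapping arrays.

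Antigen presentation genes were also higher on the AA arrays, by a smaller median of 0.39 over 23 members. At an unadjusted p under 0.05, 10 were higher (43.5%, against 4.28% of all genes) and none lower, and 9 did not overlap (39.1%, against 4.65%). The median was 0.40 for IKKa-AA against WT and 0.35 for double mutants against bCATca. The peptide transporter gene Tap1 read 9.67 and 8.47 in IKKa-AA, against 8.17 and 7.61 in WT, and 9.62 and 9.88 in double mutants, against 8.59 and 8.91 in bCATca. It stood 1.09 higher (SE 0.25, adjusted p = 0.335), with 3 of its 4 probe sets positive, and its partner Tap2 0.52 higher (SE 0.15, adjusted p = 0.372). Psmb8, an immunoproteasome subunit, stood 0.44 higher (SE 0.15, adjusted p = 0.41).

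The MHC class II gene H2-Aa did not overlap, though 1 WT array read far below the other. H2-Aa read 12.09 and 12.33 in IKKa-AA, against 11.85 and 9.95 in WT, and 12.36 and 12.35 in double mutants, against 11.74 and 11.64 in bCATca. WT replicate 2 was the low array, and the shared difference of 0.99 was 0.54 at its smallest with a single array left out. The count of antigen presentation genes higher at an unadjusted p under 0.05 depended on several arrays. In place of 10 it was 6 without WT replicate 2, without either IKKa-AA array or without double mutant replicate 2, and 5 without bCATca replicate 1. The class I genes H2-K1 and H2-D1 and their light chain B2m, named after their values were seen, differed by 0.17, 0.10 and 0.12.

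NF-κB components and targets were split in sign, with 21 of 38 and 18 of 34 positive. Among 38 components, 6 were higher (15.8%, against 4.28% of all genes) and 5 lower (13.2%, against 5.01%) at an unadjusted p under 0.05, with a median of 0.04. Of the components 8 did not overlap in the higher direction (21.1%, against 4.65%) and 3 in the lower (7.89%, against 3.76%). Among 34 targets 4 were higher (11.8%, against 4.28%) and 1 lower (2.94%, against 5.01%), also with a median of 0.04. Of the targets 5 did not overlap in the higher direction (14.7%, against 4.65%) and none in the lower (against 3.76%). Ltb, a ligand of the alternative pathway made by lymphocytes, read 4.80 and 5.94 in IKKa-AA, against 6.84 and 5.98 in WT, and 4.96 and 3.98 in double mutants, against 5.98 and 5.51 in bCATca. It was the component with the smallest p, 1.15 lower (SE 0.32, adjusted p = 0.338), and did not overlap. The adaptor gene Traf5 differed by -0.37, and Nfkbiz, an atypical IκB protein, by 0.76.

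Among the targets, Nos2, the inducible nitric oxide synthase, stood 0.60 higher (SE 0.15, adjusted p = 0.335). Ccl20, a chemokine that draws cells to lymphoid follicles, read 8.44 and 7.93 in IKKa-AA, against 7.43 and 7.53 in WT, and 7.75 and 7.48 in double mutants, against 6.73 and 7.31 in bCATca. The AA arrays were higher in both backgrounds, by 0.65 (SE 0.16, adjusted p = 0.335). Ccl20 was also the only member of the alternative NF-κB and M cell list, of 15, at an unadjusted p under 0.05 (6.67%, against 4.28% of all genes). In that list 3 members did not overlap in the higher direction (20%, against 4.65%) and none in the lower (against 3.76%). The lists of genes tied to M1 and M2 macrophages had medians of 0.04 and -0.02. Of 15 M2 genes, 4 were lower at an unadjusted p under 0.05 (26.7%, against 5.01% of all genes) and 2 did not overlap in that direction (13.3%, against 3.76%). Of 17 M1 genes 1 was higher (5.88%, against 4.28%) and 1 lower (5.88%, against 5.01%).

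**Figure D2:**
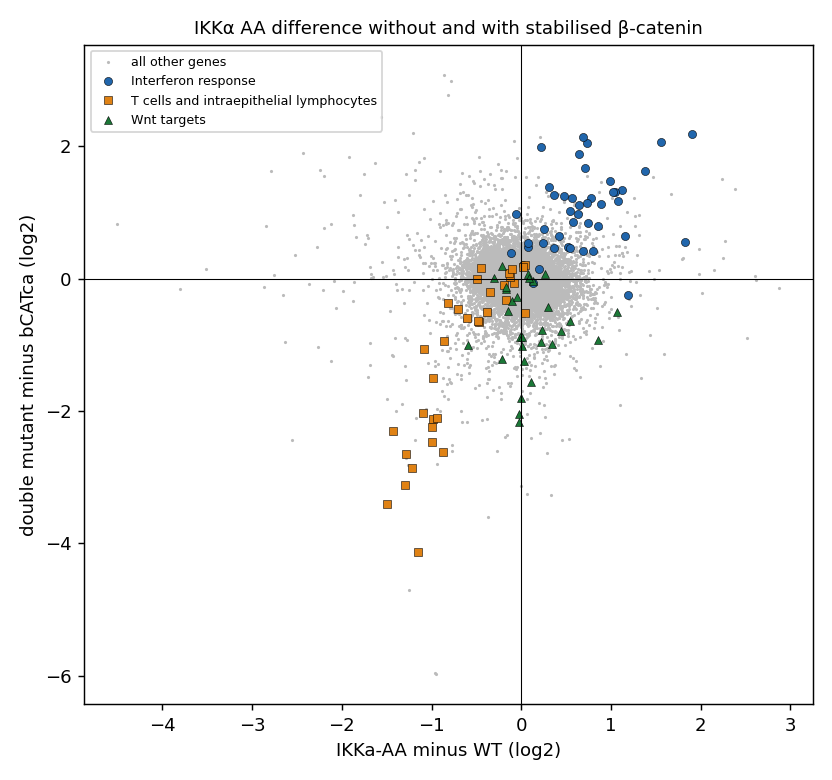
Difference of each of 12393 genes in IKKa-AA against WT (horizontal, log2) and in double mutants against bCATca (vertical, log2), with 3 lists marked. Interferon genes (blue) lie mainly at the upper right, T cell markers (orange) in the lower left, and Wnt targets (green) spread downward along the vertical axis near 0 on the horizontal one.

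Stress genes of the endoplasmic reticulum were positive in all 26 measured members, with a small median of 0.22, and 6 were higher at an unadjusted p under 0.05 (23.1%, against 4.28% of all genes). IKKa-AA replicate 1 carried most of the difference from WT, with a median of 0.40, whereas replicate 2 had 0.06. Replicate 2 lay below both WT arrays in 10 members (4396 of all 12393 genes). In 8 members the signs were opposite between the backgrounds (7034 of all 12393 genes). Atf3, a transcription factor of the stress response, read 8.29 and 7.39 in IKKa-AA, against 6.40 and 6.76 in WT, and 8.37 and 7.53 in double mutants, against 6.70 and 6.78 in bCATca. In both backgrounds 1 of the AA arrays stood well above the other, and both stood above the arrays without AA, by 1.24 in all (SE 0.23, adjusted p = 0.325). Chac1, which degrades glutathione, stood 1.50 higher (SE 0.36, adjusted p = 0.335) and Trib3, a pseudokinase of the same response, 0.52 higher. Trib3 and Herpud1, a protein of endoplasmic reticulum-associated degradation, rose in double mutants against bCATca, by 0.97 and 1.19, and stood at 0.06 and -0.37 in IKKa-AA against WT. Of 20 genes known to respond to tissue handling, 2 were higher at an unadjusted p under 0.05, Atf3 and Fosb (10%, against 4.28% of all genes). By the same measure 1 was lower, Nr4a1 (5%, against 5.01%).

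Other genes named by p with higher values belonged to no list. Mbl2, the mannose-binding lectin of the complement system, read 8.53 and 7.54 in IKKa-AA, against 5.13 and 6.17 in WT, and 6.79 and 5.59 in double mutants, against 4.84 and 4.82 in bCATca. It had the largest difference among the 15 named, 1.87 (SE 0.37, adjusted p = 0.325), without overlap. Mocs1, which begins molybdenum cofactor synthesis, stood 1.14 higher, Spats2l 1.09, Wdpcp, a planar cell polarity effector, 0.72, Net1 0.71, and Elac1, an enzyme of tRNA processing, 0.55. Each had an adjusted p of 0.325 in limma and arrays that did not overlap.

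Of the neutrophil and mast cell list, 4 genes of mast cells were lower on the AA arrays in both backgrounds. In the list as a whole 15 of 19 members had a negative difference and 4 a positive one, with a median of -0.10. The signs were opposite between the backgrounds in 9 members (7034 of all 12393 genes). Mcpt1, a protease of mucosal mast cells, read 3.97 and 4.13 in IKKa-AA, against 5.66 and 4.97 in WT, and 3.70 and 4.48 in double mutants, against 7.50 and 6.32 in bCATca. All 4 AA arrays were near the background guide, so the difference of -2.04 (SE 0.38, adjusted p = 0.325) is a difference of readings and no exact fold. Mcpt2, a related protease, read 5.15 and 5.24 in IKKa-AA, against 6.09 and 5.84 in WT, and 4.71 and 5.72 in double mutants, against 8.21 and 7.42 in bCATca. Unlike T cell markers, Mcpt1 and Mcpt2 stood low on both IKKa-AA replicates, which read alike.

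Kit, the receptor of stem cell factor, differed by -1.08 (SE 0.29) and the mast cell carboxypeptidase gene Cpa3, named after its values were seen, by -0.40 (SE 0.11), and neither overlapped. In double mutants against bCATca, Mcpt1, Mcpt2 and Kit fell by 2.82, 2.60 and 1.79 (adjusted p = 0.0218, 0.018 and 0.018). These 4 were the members of the neutrophil and mast cell list, of 19, that were lower at an unadjusted p under 0.05 (21.1%, against 5.01% of all genes), and Ltf, the lactoferrin of neutrophils, was higher, by 0.95. Mcpt4, the protease of connective tissue mast cells, read at most 3.97 on AA arrays and at most 4.29 on the others. In bulk RNA, fewer cells of a type and less RNA per cell cannot be told apart.

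**Figure D3:**
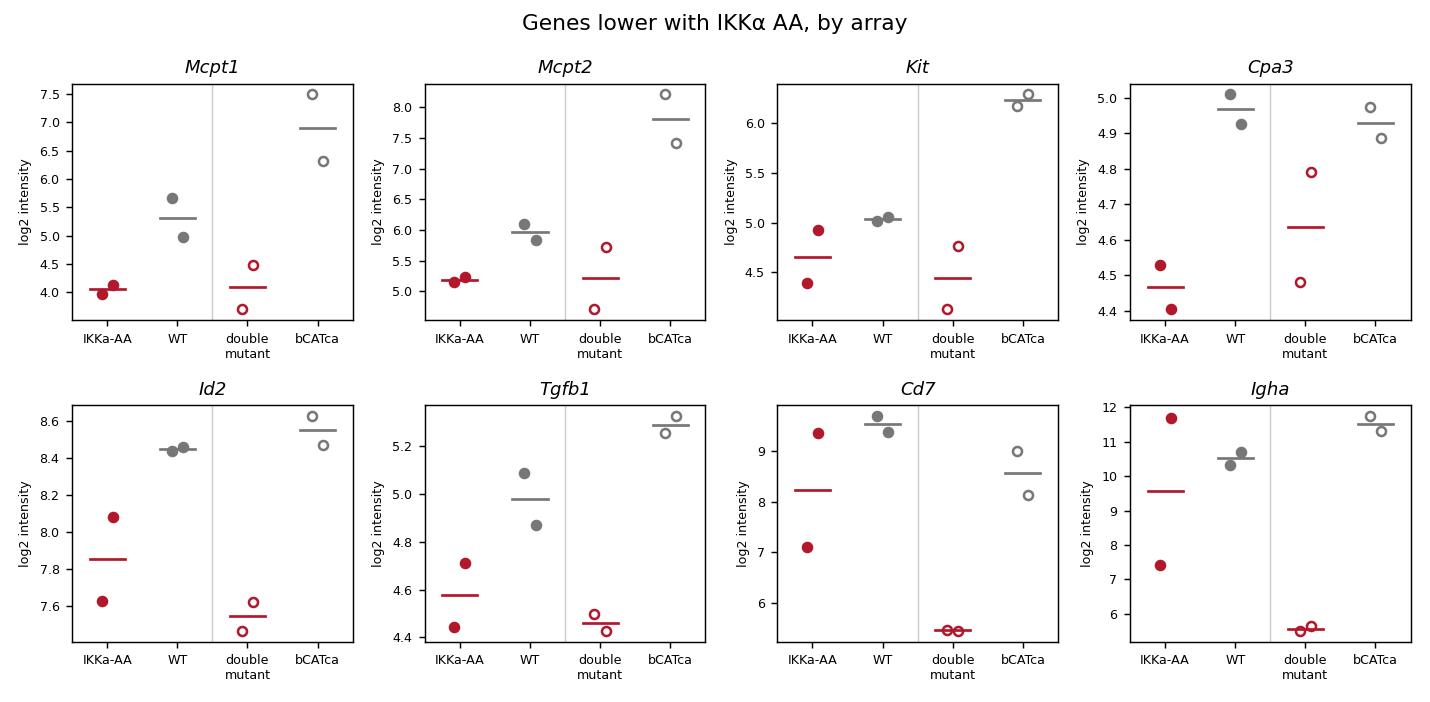
Log2 intensity (vertical axes, each on its own scale) of 8 genes with lower values on the AA arrays, in IKKa-AA, WT, double mutants and bCATca, with 1 dot per array and a line at the mean of each pair. Mcpt1, Mcpt2, Cpa3, Id2 and Tgfb1 are lower on both IKKa-AA arrays, while Cd7 and Igha are low on 1 IKKa-AA array and on both double mutant arrays.

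T cell and intraepithelial lymphocyte markers were lower on the AA arrays by a median of 0.59, written as -0.59 with the sign of the contrast. Of 33 markers, 18 were lower at an unadjusted p under 0.05 (54.5%, against 5.01% of all genes), none was higher, and 3 did not overlap (9.09%, against 3.76%), Cd7, Cd5 and Xcl1. Their mean level was 5.51 and 6.68 in IKKa-AA, against 6.98 and 6.54 in WT, and 4.98 and 4.88 in double mutants, against 6.27 and 5.96 in bCATca. IKKa-AA replicate 2 lay between the WT arrays, and the other 3 AA arrays lay below all 4 arrays without AA. Cd7, a surface protein of intraepithelial lymphocytes, read 7.11 and 9.37 in IKKa-AA, against 9.70 and 9.38 in WT, and 5.47 and 5.44 in double mutants, against 9.0 and 8.14 in bCATca. Its IKKa-AA replicate 2 was level with WT replicate 2 but for the last digit, so its lack of overlap there is marginal. Ptprc, the pan-leukocyte antigen CD45, differed by -1.61 (SE 0.38, adjusted p = 0.335). The chemokine gene Ccl5 differed by -2.64 (SE 0.63, adjusted p = 0.335) and was the only member to pass in double mutants against bCATca, where it fell by 4.14 (adjusted p = 0.018). In 21 of the 33 markers both double mutant arrays were below both bCATca arrays (3002 of all 12393 genes). The T cell receptor complex gene Cd3g, named after its values were seen, read 3.39 and 4.00 in double mutants, within the background guide, against 7.37 and 6.82 in bCATca.

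Plasma cell transcripts followed the same arrays. Igha, the heavy chain of IgA, read 7.43 and 11.70 in IKKa-AA, against 10.33 and 10.72 in WT, and 5.50 and 5.64 in double mutants, against 11.75 and 11.31 in bCATca. IKKa-AA replicate 2 was above both WT arrays, so Igha was lower with AA on 3 of 4 arrays and overlapped. It fell in double mutants against bCATca by 5.96 (adjusted p = 0.0444). Ms4a1, the B cell antigen CD20, read at most 3.56 on AA arrays and at most 4.37 on the others, near background. Of 18 B and plasma cell markers 4 were lower at an unadjusted p under 0.05 (22.2%, median -0.12), and of 24 myeloid markers 5 were lower (20.8%, median 0.00), against 5.01% of all genes.

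The T cell markers and the interferon genes had median differences of opposite sign on all 4 AA arrays. The median differences of the T cell markers were -1.28 and -0.08 for the IKKa-AA arrays against WT and -0.65 and -0.68 for the double mutant arrays against bCATca, beside 1.06, 0.24, 1.06 and 0.99 for the interferon list on the same arrays. IKKa-AA replicate 2 had the smallest difference in both lists. Its T cell markers averaged within the WT range, while the interferon list at 7.39 and the antigen presentation list at 9.88 stood above both WT arrays (7.18 and 7.04, and 9.79 and 9.29). Whether lymphocyte content bears on the other differences was not tested.

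**Figure D4:**
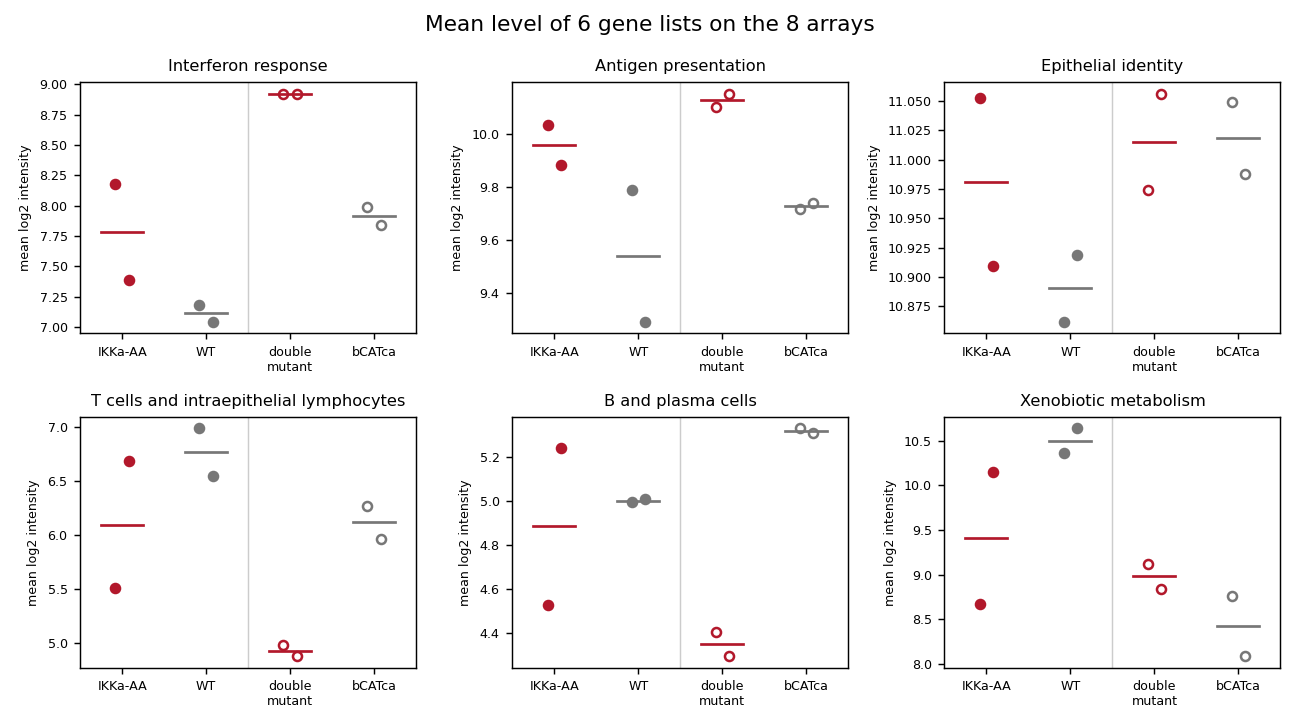
Mean log2 intensity (vertical axes, each on its own scale) of 6 gene lists in IKKa-AA, WT, double mutants and bCATca, with 1 dot per array and a line at the mean of each pair. Interferon and antigen presentation dots are higher with AA in both backgrounds, and epithelial identity spans only 10.86 to 11.06. For the interferon response, T cells, plasma cells and xenobiotic metabolism the IKKa-AA dots lie far apart.

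The remaining genes named by p with lower values came mostly from outside the lists. Id2, an inhibitor of basic helix-loop-helix factors and a member of the Wnt target list, read 7.63 and 8.08 in IKKa-AA, against 8.44 and 8.46 in WT, and 7.46 and 7.62 in double mutants, against 8.63 and 8.47 in bCATca. All 4 AA arrays lay below all 4 others, the difference was -0.80 (SE 0.14, adjusted p = 0.325), and Id2 fell in double mutants against bCATca by 1.01 (adjusted p = 0.0408). Tgfb1, the cytokine TGF-β1, read 4.44 and 4.71 in IKKa-AA, against 5.09 and 4.87 in WT, and 4.50 and 4.43 in double mutants, against 5.25 and 5.33 in bCATca. Here too no AA array reached the level of any other array (-0.62, SE 0.13, adjusted p = 0.325), and Tgfb1 fell in double mutants against bCATca by 0.83 (adjusted p = 0.0456).

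Tfpi, which inhibits the tissue factor pathway of clotting, differed by -0.68 (SE 0.11, adjusted p = 0.325) and fell in double mutants against bCATca by 0.84. Emb, the membrane glycoprotein embigin, differed by -1.18 (SE 0.23) and fell there by 1.56. Ptgr1, a prostaglandin reductase, read 10.12 and 10.77 in IKKa-AA, against 11.50 and 11.45 in WT, and 10.47 and 10.43 in double mutants, against 11.16 and 11.01 in bCATca, without overlap (-0.83, SE 0.16, adjusted p = 0.325). The others, none of which overlapped, were Prkacb, a catalytic subunit of protein kinase A (-1.19), Map4k1, a kinase of blood cells (-0.91), Phlda3, a p53-induced repressor of Akt (-0.73), Bmyc, a relative of Myc (-0.56), Adgrl1 (-0.53), the GABA receptor gene Gabbr1 (-0.53, 3 of 4 probe sets in that direction), Nthl1, a base excision repair enzyme (-0.52), and the chaperone genes Dnaja4 (-0.51) and Hspb1 (-0.50). Of the 30 genes named by p, 18 passed without IKKa-AA replicate 2, and all 30 kept their sign in the alternatives that gave them a value. Of these, the restriction to genes above the median level gave one for 15, and the fit of every probe set on its own gave none.

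Most genes did not share a direction between the backgrounds. IKKa-AA against WT and double mutants against bCATca had the same sign for 43.2% of all genes. Of the 50 genes that rose in double mutants against bCATca, 16 had the same sign in IKKa-AA against WT (32%, beside 49.2% of all genes with that sign), and of the 100 that fell, 49 did (49%, beside 50.8%). In IKKa-AA against WT 1 gene passed (0.00807%): Amph, the membrane-bending protein amphiphysin, which fell by 2.21 (adjusted p = 0.0108) and stood at -0.17 in the other background. Its IKKa-AA readings of 2.24 and 2.60, against 4.54 and 4.72 in WT, were below the background guide. On the double mutant and bCATca arrays Amph also read below the guide. The difference between the backgrounds, tested as an interaction, passed for 11 genes (0.0888%).

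Wnt targets were among the lists whose members differed between the backgrounds, with 14 of 29 at an unadjusted interaction p under 0.05, beside 11 of 18 stem cell genes, 9 of 17 circadian clock genes and 1950 of all 12393 genes. Their median was 0.00 in IKKa-AA against WT and -0.77 in double mutants against bCATca, where Id2, Wif1, Nkd1, Notum and Apcdd1 fell. Notum, a secreted Wnt inhibitor, read 4.92 and 4.88 in IKKa-AA, against 4.85 and 5.01 in WT, and 5.64 and 6.62 in double mutants, against 8.33 and 8.0 in bCATca. Its AA arrays were lower in the second background alone, and the same held for Nkd1, another inhibitor of the pathway, whose interaction passed (adjusted p = 0.0166). In IKKa-AA and WT, Nkd1 read below the background guide, where a fall could hardly be read. Stem cell genes had medians of 0.18 and -0.61, mitosis genes 0.34 and -0.23, DNA replication genes 0.19 and -0.34, and ribosome biogenesis genes 0.27 and -0.27. The positive medians of mitosis, DNA replication and ribosome biogenesis came from IKKa-AA replicate 1, at 0.79, 0.40 and 0.53 against WT, while replicate 2 stood at -0.04, 0.04 and -0.02. In none of these 4 lists did a member reach an unadjusted p under 0.05 in the shared effect. Paneth cell genes had medians of 0.18 and -0.96 over 9 measured members, and the IKKa-AA replicates stood on opposite sides of WT, at -0.14 and 0.45.

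Genes of absorptive and metabolic function opposed each other the other way. Xenobiotic metabolism had a median of -0.79 in IKKa-AA against WT and of 0.57 in double mutants against bCATca. Of its 40 members 34 had opposite signs (7034 of all 12393 genes). The IKKa-AA arrays stood at list means of 8.67 and 10.15, against 10.36 and 10.64 in WT, so replicate 1 made most of the first difference, and the medians of the replicates against WT were -1.45 and -0.25. Enterocyte genes had medians of -0.11 and 0.50, and the peptidase gene Enpep among them rose in double mutants against bCATca by 1.02. A shared difference in this group was that of Ephx1, the microsomal epoxide hydrolase, which read 5.68 and 8.0 in IKKa-AA, against 8.06 and 8.98 in WT, and 5.27 and 5.54 in double mutants, against 7.08 and 6.32 in bCATca. It did not overlap (-1.49, SE 0.45, adjusted p = 0.372), though IKKa-AA replicate 2 was only slightly below WT replicate 1.

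**Figure D5:**
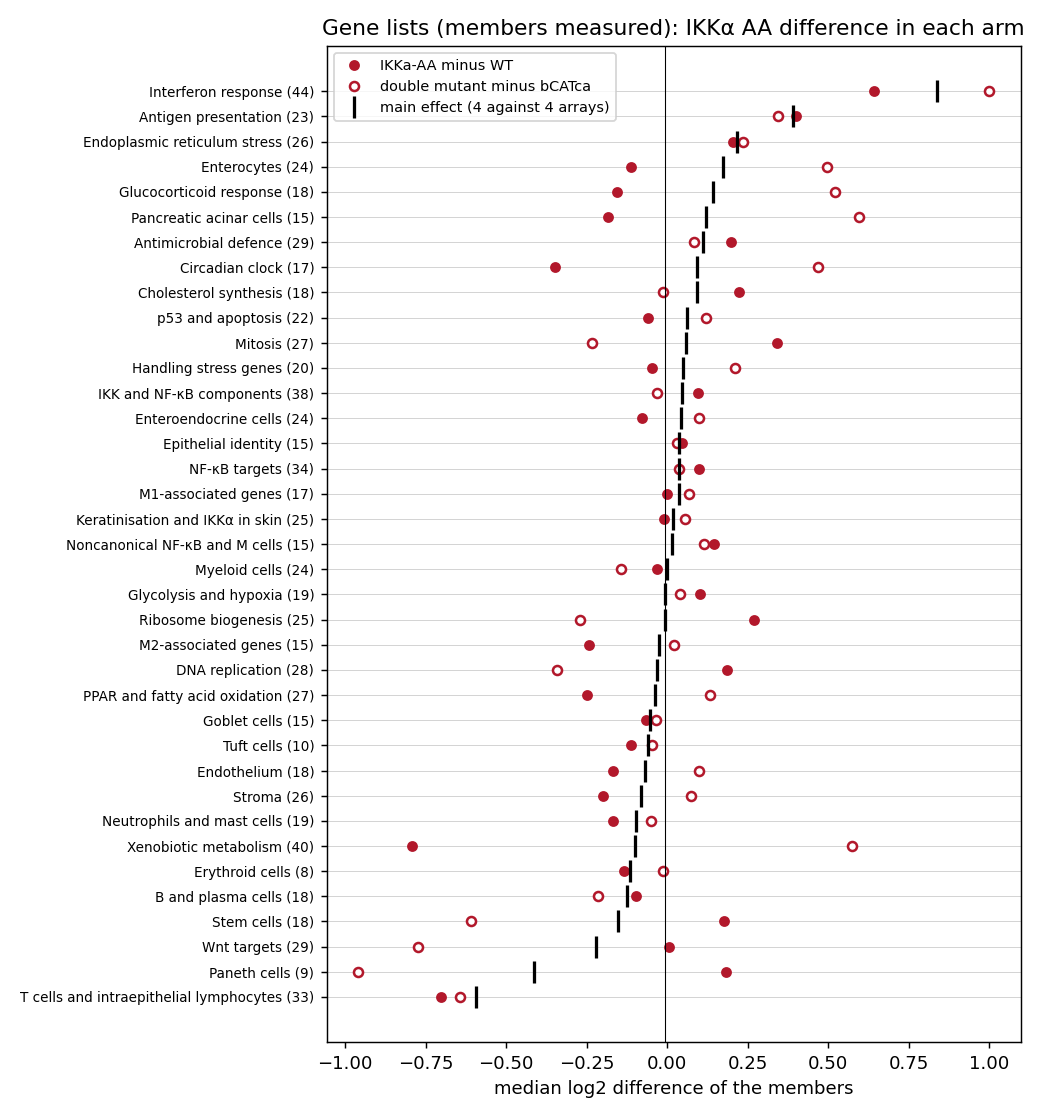
Median log2 difference of the measured members of each list for IKKa-AA against WT (filled dots), double mutants against bCATca (open dots) and both combined (bars). Interferon response, antigen presentation, endoplasmic reticulum stress and T cell markers have both dots on the same side of 0, with 0.21 and 0.23 for endoplasmic reticulum stress, whereas Wnt targets, Paneth cells and xenobiotic metabolism have dots far apart.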

How the data were processed

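RNA from IEC preparations was hybridised at 200 ng of total RNA, 1 array per sample, 2 arrays in each of 4 groups. The deposited values are linear RMA intensity values made with affy, per the submitters' processing notes, and their versions were not given in the sources used here. The method corrects background, normalises arrays by quantiles and summarises probes, so differences are relative within this set. The number of arrays limits the precision.

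The log2 of each intensity was taken, although log2 values had been assumed. Of 22690 probe sets, 20380 had 1 gene symbol, 691 several, 1555 none and 64 were controls. The brightest single-symbol probe set stood for each gene, which gave 12393 genes. Old symbols were updated through 20351 Entrez identifiers. The model in limma 3.58.1 (R 4.3.3), with lmFit and eBayes, had AA and β-catenin as terms. The interaction and the effect in each background came from 4 group means. Code was tested on simulated data. Python 3.11.15, pandas 2.3.3, numpy 2.4.6 and matplotlib 3.10.9 were used for tables and figures.

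The comparison, the members and the 39 lists were chosen with earlier results of these data known. Genes named by p were to be the 15 largest differences in each direction among those that passed. As none passed, they were the 15 with the smallest p in each direction with the same sign in both backgrounds and a higher mean above 5. From lists described, those that passed or the 3 with the smallest p were named, and others are marked in the text. Promoters were RefSeq, GRCm38.p6. Alternatives were normalisation, probe set choice, level filter, array weights, moderation, covariate, replicate block and leaving out each array. No label says that replicate numbers pair samples. Correlations of same-numbered deviations between groups ran from -0.45 to 0.15 and cannot show whether they do.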

Additional observations from a re-analysis of the deposited data

Results flagged for a closer look

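The effect of AA differed between the β-catenin backgrounds for 11 genes by a test of the difference itself (limma interaction, double mutants minus bCATca less IKKa-AA minus WT, Benjamini-Hochberg adjusted over 12393 genes).

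The interaction was positive for 5 genes. Slc23a1, a vitamin C transporter, had an interaction of 3.95 (adjusted p = 0.0166). It read 6.45 and 6.89 in double mutants, against 3.83 and 3.34 in bCATca. Its readings were 6.65 and 7.15 in IKKa-AA, against 8.11 and 7.43 in WT. Per2, a clock repressor, had 3.42, with an AA difference of 2.20 with stabilised β-catenin and -1.21 without it. Acox2, a peroxisomal oxidase of bile acid intermediates, had 3.37, with 1.75 and -1.63. The carboxylesterase gene Ces1f had 2.08, with 1.63 and -0.45, and Amph had 2.04, with -0.17 and -2.21. For Slc23a1, Per2, Acox2 and Ces1f the AA arrays were above bCATca in one background and below WT in the other.

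The interaction was negative for 6 genes. Myl9, a myosin light chain of smooth muscle, had -3.23 (adjusted p = 0.0166). It read 4.84 and 5.47 in double mutants, against 8.86 and 8.64 in bCATca. In IKKa-AA it read 2.83 and 3.10, against 3.39 and 3.26 in WT, which is below the background guide. Hacd4, an enzyme of very long-chain fatty acid synthesis, had -2.35, the heparan sulfate sulfotransferase gene Hs6st2 -2.21, Nkd1 -2.14, Marcksl1 -1.81 and the Wnt receptor gene Fzd7 -1.58. All 6 were lower in double mutants than in bCATca, and Fzd7 was higher in IKKa-AA than in WT by 1.07.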

How the results depend on the processing

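Counts of genes passing limma depended on single arrays and the cause was not tested. The shared AA effect gave 0 genes in most alternatives, 5 with 4 group means, and 0 to 137 with 1 array left out. IKKa-AA replicate 2 gave the 137 and WT replicate 2 gave 1. The interaction gave 11, but 45 with genes above the median level only, 60 with every probe set on its own, 73 with trended and robust moderation, 36 with array weights and 0 to 234 with 1 array left out. Double mutants against bCATca gave 150, but 63 with genes above the median level only and 11 to 395 with 1 array left out. IKKa-AA against WT gave 1, but 0 with genes above the median level only, 7 with every probe set on its own, 4 with trended and robust moderation and 0 to 325 with 1 array left out. The replicate block, for numbers that no label says pair the samples, gave 0 genes for the shared effect and 6 for the interaction. It gave 72 for double mutants against bCATca and 1 for IKKa-AA against WT. Added after seeing the data, 4 counts at an unadjusted p were followed too. They were 1151 genes (608 among genes above the median level, 987 with the block, 858 to 1288 with 1 array left out), 36 interferon genes (18 without the β-catenin covariate, 35 with the block, 31 to 37), 10 antigen presentation genes (10 with the block, 5 to 11) and 18 T cell markers (18 with the block, 15 to 23). An array left out of a pair leaves 1, which is assumed to vary like the other groups. Readings near or below background in at least 1 group limit Mcpt1, Mcpt4, Ms4a1, Mx1, Amph, Myl9, Hs6st2, Nkd1 and Cd3g, among others.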

Other observations

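Clock and glucocorticoid-responsive genes differed in direction between the backgrounds. Circadian clock genes had a median of 0.47 in double mutants against bCATca and -0.35 in IKKa-AA against WT (17 genes), and Per1, Per2 and Tef rose in double mutants against bCATca by 1.35, 2.20 and 1.21. The 18 glucocorticoid-responsive genes had medians of 0.52 and -0.16, and the metallothionein genes Mt1 and Mt2 had shared differences of 0.62 and 0.85 without passing the test.

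Pancreatic acinar transcripts were high on 1 array, double mutant replicate 1. Ctrb1, a chymotrypsinogen, read 8.07 there and 4.81 on replicate 2, against 4.52 and 4.19 in bCATca, and Cpb1, a procarboxypeptidase, read 6.35 and 2.90, against 2.51 and 2.45.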
